A study of Arabidopsis thaliana with 24 samples.

Results

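Among the regions that the Arabidopsis transcription factor bZIP68 was found on by chromatin immunoprecipitation and sequencing (ChIP-seq), 362 lay more than 1000 bp upstream of the gene they were assigned to. They were the rows of the authors' larger peak list that were annotated as promoter and had a distance to the start of transcription under -1000 bp, on the 5 nuclear chromosomes. The list held 5734 nuclear peaks and another 14 on organelle genomes, so the distal promoter peaks were among the smaller classes. Another 701 promoter peaks lay 1 to 1000 bp upstream, 3272 covered the start, 1199 lay downstream of it and 200 were outside promoters. The distance, which the authors gave, ran to the nearest edge of the peak in all 362 cases.

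The ChIP-seq material was whole 8-day seedlings kept under light of 125 µmol per square metre and second, 3 samples of a line expressing bZIP68-FLAG and 3 of a line expressing GFP-FLAG as the control, both cross-linked with formaldehyde and precipitated with an antibody to the FLAG tag. Each sample pooled many seedlings. RNA-seq came from whole 14-day seedlings, grown at the same light, of the wild type (wt) and the bzip68 mutant. Both genotypes were sprayed with 0.01% Triton X-100 in water (mock) or with 5 mM hydrogen peroxide (H2O2) in the same detergent, with 3 samples in each of the 4 groups. The sources used here do not state which promoter drove the tagged proteins, which allele the mutant carries or how long after spraying plants were taken. Binding was thus measured in younger, unsprayed plants than expression. The peaks are 1 list for all ChIP samples, so their variation between replicates cannot be seen.

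bZIP68 is a basic leucine zipper factor of group G, a family of plant factors that bind as dimers to DNA elements with an ACGT core, above all the palindromic G-box. G-boxes are common in promoters of genes that respond to light, abscisic acid and stress. In the compact Arabidopsis genome, a site well upstream of 1 gene can sit in or beside its neighbour.

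The bases at the centre of 8 distal peaks are printed here because the results below turn on them: 3 high-scoring peaks with a G-box near the centre, that at a drought gene, that with the most G-boxes, a high-scoring peak with no ACGT core, and the peaks of both genes called between the genotypes. The authors listed no summit, so the centre of the peak was used. Each is 300 bases of the plus strand, written 5′ to 3′, of the TAIR10.1 reference, whose 5 nuclear chromosomes contain all listed nuclear peaks. Capitals mark the G-box CACGTG, or, where there was none, the core ACGT.
TCX2 (chr4:8486359-8486658): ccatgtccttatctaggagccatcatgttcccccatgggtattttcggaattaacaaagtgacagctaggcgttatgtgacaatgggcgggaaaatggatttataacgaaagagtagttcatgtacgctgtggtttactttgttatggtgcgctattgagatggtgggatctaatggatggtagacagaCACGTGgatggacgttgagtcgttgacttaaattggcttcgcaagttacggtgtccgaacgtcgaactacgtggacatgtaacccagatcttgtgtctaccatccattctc
AT5G11460 (chr5:3661901-3662200): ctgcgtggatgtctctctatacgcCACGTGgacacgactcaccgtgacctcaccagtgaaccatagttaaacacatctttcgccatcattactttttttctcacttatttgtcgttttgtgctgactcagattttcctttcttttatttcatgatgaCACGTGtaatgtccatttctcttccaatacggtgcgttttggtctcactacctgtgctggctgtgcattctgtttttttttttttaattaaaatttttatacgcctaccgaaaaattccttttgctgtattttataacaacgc
DMR6 (chr5:8376450-8376749): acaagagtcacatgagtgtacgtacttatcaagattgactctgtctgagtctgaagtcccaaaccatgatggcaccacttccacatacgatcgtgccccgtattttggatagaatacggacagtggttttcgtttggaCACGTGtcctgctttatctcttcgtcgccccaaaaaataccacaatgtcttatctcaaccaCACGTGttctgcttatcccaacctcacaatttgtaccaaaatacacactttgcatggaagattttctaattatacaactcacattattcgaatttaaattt
HB-12 (chr3:22917328-22917627): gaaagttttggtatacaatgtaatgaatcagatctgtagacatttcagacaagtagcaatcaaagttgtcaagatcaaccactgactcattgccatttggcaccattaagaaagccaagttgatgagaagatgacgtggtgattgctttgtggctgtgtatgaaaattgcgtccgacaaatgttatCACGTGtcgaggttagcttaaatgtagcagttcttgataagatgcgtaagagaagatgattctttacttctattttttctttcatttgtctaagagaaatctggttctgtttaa
ACDO1 (chr4:15231319-15231618): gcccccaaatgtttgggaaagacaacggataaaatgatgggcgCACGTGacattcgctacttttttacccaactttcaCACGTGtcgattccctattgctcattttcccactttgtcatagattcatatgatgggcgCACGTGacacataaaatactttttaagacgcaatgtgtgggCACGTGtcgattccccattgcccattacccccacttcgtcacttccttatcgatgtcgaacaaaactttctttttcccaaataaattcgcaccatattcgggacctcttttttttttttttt
AT2G26720 (chr2:11382760-11383059): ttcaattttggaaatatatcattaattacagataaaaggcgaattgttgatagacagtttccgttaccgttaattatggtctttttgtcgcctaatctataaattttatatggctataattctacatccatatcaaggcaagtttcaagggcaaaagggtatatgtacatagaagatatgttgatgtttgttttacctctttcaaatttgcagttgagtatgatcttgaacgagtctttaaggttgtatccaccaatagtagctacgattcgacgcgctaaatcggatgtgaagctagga
CNGC3 (chr2:19056091-19056390): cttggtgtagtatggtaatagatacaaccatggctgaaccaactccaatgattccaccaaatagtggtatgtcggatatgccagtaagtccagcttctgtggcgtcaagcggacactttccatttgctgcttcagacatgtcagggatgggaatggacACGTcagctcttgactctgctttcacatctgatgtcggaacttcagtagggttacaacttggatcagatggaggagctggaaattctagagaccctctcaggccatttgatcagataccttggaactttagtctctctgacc
AT3G46700 (chr3:17204005-17204304): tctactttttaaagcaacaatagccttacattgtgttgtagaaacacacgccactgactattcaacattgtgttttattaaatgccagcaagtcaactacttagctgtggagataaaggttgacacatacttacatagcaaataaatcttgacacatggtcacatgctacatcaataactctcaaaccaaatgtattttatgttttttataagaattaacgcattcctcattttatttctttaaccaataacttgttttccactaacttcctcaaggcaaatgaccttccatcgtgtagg

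The peaks upstream of TCX2 (AT4G14770), a CXC-domain protein of cell division, and of AT5G11460, a protein of unknown function, were among the 10 with the highest score, at 865 and 852. TCX2 had 1 G-box, 42 bp from the centre, and AT5G11460 had 2, the nearer 10 bp from it. DMR6 (AT5G24530), an oxygenase that breaks down salicylic acid, had 2 G-boxes, the nearer 9 bp from the centre. HB-12 (AT3G61890), a homeobox factor of the drought and abscisic acid response, had 1 at 39 bp. ACDO1 (AT4G31390), an ABC1-like kinase related to chlorophyll breakdown and oxidative stress, had 4, and no other distal peak had as many. In the printed bases of AT2G26720 and AT3G46700 no ACGT was found, while CNGC3 had 1 core without a G-box.

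A G-box lay in the central 300 bases of 127 of the 362 distal peaks, or 35.1% (95% Wilson interval 30.3% to 40.1%, which covers counting error only). The same element was in 3.26% of the 397152 windows of 300 bases laid end to end over the 5 chromosomes, and in 3.67% of 27441 windows centred 2000 bp upstream of coding genes. The share in the distal peaks was thus 10.8 times the genome-wide share and 9.56 times that of upstream windows. In peaks 1 to 1000 bp upstream it was 35.2% (31.8% to 38.8%), in those covering the start 30.7% and downstream of it 27.6%. The intervals of the distal and the nearer upstream peaks overlapped almost wholly; the differences between classes were not tested.

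The distal windows had a median of 39.0% G and C against 36.3% over the genome. Among windows with 36% to 40% G and C, chosen after the data were seen, 28.0% of 118 distal peaks held a G-box against 3.09% of 100463 genome windows. Within the distal class, 88 peaks had 1 G-box in the central window, 33 had 2, 5 had 3 and 1 had 4. A G-box was found within 1000 bp of the centre in 191 of them.

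Other ACGT elements were counted on both strands in the same windows. The core ACGT, which CACGTG and the other elements contain, was in 79.0% of the distal peaks and 40.5% of genome windows. The extended core ACGTG, part of every G-box, was in 67.7% and 18.4%. The element CCACGT in windows without CACGTG, which shares part of the G-box, was in 19.1% of distal peaks against 3.85% of genome windows. The C-box GACGTC was less frequent, at 5.52% against 2.22%, and the A-box TACGTA was in 9.12% against 4.2%. The A-box share was 8.42% in peaks 1 to 1000 bp upstream and 4.37% in peaks covering the start. A match describes the letters in the window and does not show binding.

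G-boxes were concentrated at the peak centres. In 100-bp bins, 18.5% of distal peaks had a G-box in the bin just left of the centre and 13.0% in the bin just right of it. The share was 8.29% and 9.94% in the next bins and fell to between 0.276% and 1.66% in every bin from 400 bp outwards. The nearer upstream peaks had 15.8% and 15% in the same central bins.

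**Figure D1:**
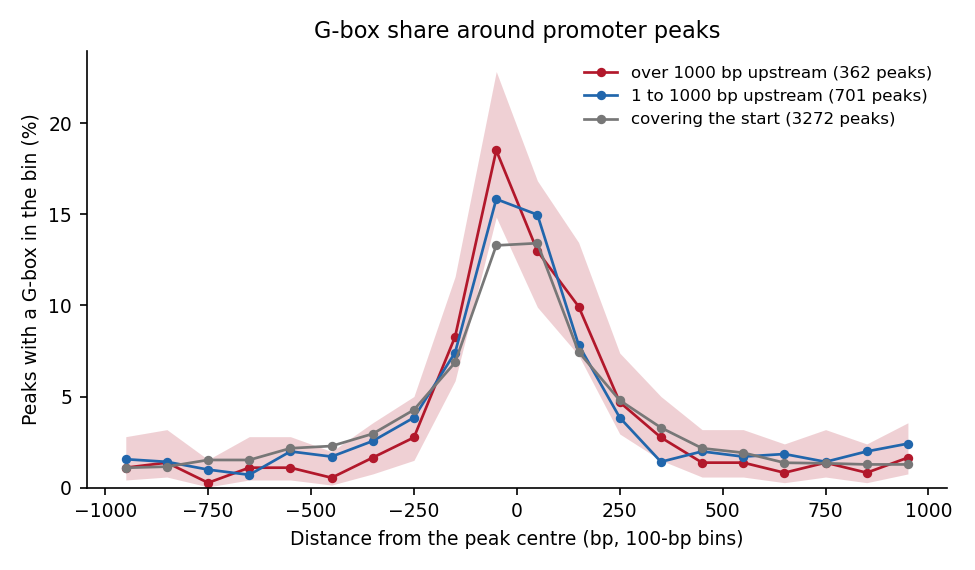
Share of peaks (%, vertical axis) with a G-box in each 100-bp bin by distance from the peak centre (bp, horizontal axis) for distal promoter peaks (red, 362, band showing the 95% Wilson interval), peaks 1 to 1000 bp upstream (blue, 701) and peaks covering the start (grey, 3272). All 3 curves rise at the centre, where the distal class reaches 18.5%, and the distal class stays at or under 1.66% from 400 bp outwards.

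The authors' peak score, which grows as a peak's p-value shrinks, on a negative log10 scale, had a median of 140 over the distal peaks, with quartiles of 97.7 and 236 and a range of 57.1 to 926.75. The medians were 142 for peaks 1 to 1000 bp upstream and 158 for peaks covering the start. Width had a median of 833.5 bp (2 to 2741), and 7 distal peaks were under 200 bp. Distances ranged from -2981 bp at MKP1 (AT3G55270), a phosphatase that switches off MAP kinases, to -1001 bp at AT5G49350, a glycine-rich protein. Just outside the limit lay a peak of AT3G14810 at -1000 bp with a score of 661.41, against 485.37 for AT5G49350 just inside. On each chromosome 5.82% to 7.08% of the peaks were distal.

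The share of distal peaks with a G-box was larger at higher scores, which was not tested. It was 22.3% of 121 peaks scored 57.1 to 105.51, 35.8% of the middle 120 and 47.1% of 121 scored 192.29 to 926.75. The median G and C content rose over the same groups, from 37.7% to 39.2% and 40%, and its part in the difference was not tested. The median score was 168 with a G-box in the central window and 126 without, and the same order was seen in peaks 1 to 1000 bp upstream, at 164 and 128. Distance gave no such order, with G-box shares of 38.3%, 28.9%, 30.4% and 41.7% in successive 500-bp steps up to 3000 bp upstream and median scores of 137, 137, 151 and 144.

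**Figure D2:**
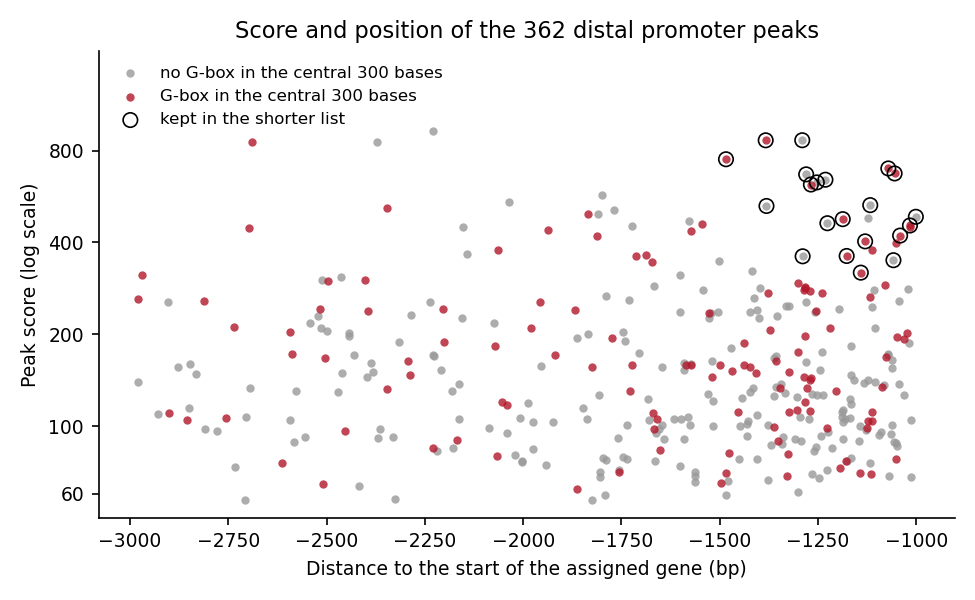
Score (vertical axis, log scale) against the distance to the start of the assigned gene (bp, horizontal axis) for each of the 362 distal peaks, red with a G-box in the central 300 bases and grey without, circled where the shorter list kept the peak. The 21 circled peaks lie between -1500 and -1000 bp at scores from 318.35 up, and peaks of similar score lie farther upstream.

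The 10 highest peaks belonged to genes of varied function. The highest, at 926.75, lay at -2229 bp from AT3G45180, a ubiquitin-like protein, and its centre was in the coding sequence of the neighbour AT3G45190. It had no G-box within 1000 bp of its centre. Next were EXGT-A3 (AT2G01850), an endoxyloglucan transferase that remodels the cell wall, at 865.16, and TCX2 at 864.62. AT5G11460 was followed by AT3G14205, a phosphoinositide phosphatase, at 850.99. AT5G53588 scored 749.38, and PHL11 (AT5G45580), a MYB-like homeodomain protein, 699.08 with 2 G-boxes. AT2G47440, a tetratricopeptide repeat protein, scored 673.18. AT2G26720, a cupredoxin, scored 668.58; its centre lay in an intron of BAS1 (AT2G26710), an enzyme that inactivates brassinosteroids, and the nearest G-box was 226 bp away. NAT8 (AT1G10540), a nucleobase transporter, scored 642.15, and its peak lay over XTH33 (AT1G10550), a xyloglucan enzyme. Thus 5 of these 10 peaks had a G-box in the central window. Over all genes, 0.0% to 9.74% were called in each comparison (edgeR). Of the genes of these 10 peaks 6 were tested, none of which was called in any. In wt mock libraries these had 156 ± 5.88 CPM (counts per scaled library size, on the usual CPM scale, mean ± SD, n = 3) for EXGT-A3, 53.5 ± 5.7 for AT3G14205 and 45.7 ± 4.63 for AT2G47440. TCX2 had 15.3 ± 0.372, AT5G11460 4.96 ± 1.26 and AT5G53588 2.19 ± 0.187 CPM.

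The authors' shorter list, for which peaks needed an adjusted p below 1e-30 and a place between -1500 and 500 bp from the start, kept 21 distal peaks, or 5.80% (3.83% to 8.71%). It kept 12.8% of peaks 1 to 1000 bp upstream and 21.2% of those covering the start. The window alone barred all but 180 distal peaks. The lowest score kept was 318.35, and 26 peaks in the window scored that much or more. Besides those named above, the kept peaks included TPR7 (AT5G21990), a tetratricopeptide repeat protein of the endoplasmic reticulum with a score of 619.26, and HMGS (AT4G11820), the hydroxymethylglutaryl-CoA synthase of isoprenoid synthesis, at 476.74. CPC (AT2G46410), a small MYB factor of root hair patterning, scored 454.52. PIP1;4 (AT4G00430), an aquaporin, scored 403.1.

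In the TAIR10.1 annotation, which lists more non-coding genes and other starts than the authors' gene models, 204 distal peaks (56.4%, interval 51.2% to 61.4%) overlapped no gene by as much as 1 base. A coding gene was overlapped by 95 (26.2%), a non-coding RNA gene by 51 (14.1%) and a pseudogene by 22 (6.08%). In peaks 1 to 1000 bp upstream, 42.1% overlapped no gene and 47.9% a coding gene. The centre of 33 distal peaks (9.12%) was in coding sequence, of 25 in another exon of a coding gene and of 9 in an intron.

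**Figure D3:**
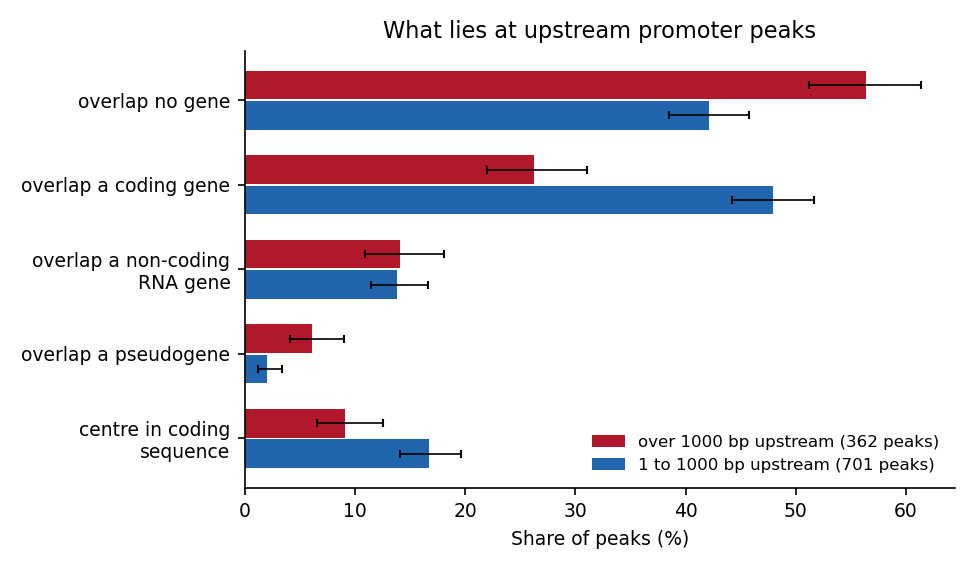
Share of peaks (%, horizontal axis, from 0) that overlap no gene, a coding gene, a non-coding RNA gene or a pseudogene, or have their centre in coding sequence, for 362 distal peaks (red) and 701 peaks 1 to 1000 bp upstream (blue), with 95% Wilson intervals. The distal peaks overlap no gene in 56.4% and a coding gene in 26.2% of cases, the nearer ones in 42.1% and 47.9%.

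Distance depended on the annotation. In TAIR10.1, 121 distal peaks (33.4%) lay within 1000 bp of the start of some gene and 55 covered one. The nearest such start belonged to a long non-coding RNA for 62 peaks, to a coding gene for 33 and to a pseudogene for 14. For 29 of the 33 the coding gene was the assigned gene itself, with a start farther upstream in this annotation. In the authors' own list of neighbouring genes, 18 distal peaks also lay 1000 to 3000 bp upstream of a second gene.

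The 362 peaks were assigned to 360 genes, since AT2G01818 and BRI1 (AT4G39400), the brassinosteroid receptor kinase, had 2 each. At BRI1 the peaks lay at -1422 bp with a score of 237.26 and no central G-box, and at -2588 bp with 172.13 and 1 G-box. The assigned gene had another promoter peak, outside the distal class, for 72 distal peaks. Peaks downstream of the start were included at any distance, and that class reached 2977 bp. Some of these other peaks may thus lie farther from the start than the distal peak.

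The RNA-seq counts held 266 of these genes and 264 passed the filter on low counts, which is 73.3% of the 360; the other classes had 64.3% to 80.0%. The 12 libraries had 8997073 to 10262992 counts. Shoot genes were high in all of them, RBCS1A at 13481 to 20083 CPM, and root genes were present, CASP1 at 10.8 to 25.2 CPM and MYB36 at 1.32 to 3.15. The seed genes CRA1 and SESA4 had no row in the table, so their level is unknown. BZIP68 had 70 to 102 counts in wt libraries and 0 to 2 in bzip68 libraries. On the second principal component, bzip68 mock replicate 2 and wt H2O2 replicate 2 stood apart, at 42.1 and 34.9 against -29.7 to 15.01 for the others. Chloroplast genes made up 0.0121% of the counts of the latter and 1.05% to 1.54% of those of the other libraries. The labels do not say whether replicates were separate cultures, so the p-values reflect the spread among these libraries alone, and that spread may be technical. In whole seedlings, fewer cells of a type and less RNA per cell cannot be told apart.

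The genotypes were compared to see which genes with a distal peak depend on bZIP68, and under mock treatment CNGC3 fell and AT3G46700 rose in bzip68. These were 2 of 264 genes, or 0.758%, beside 0.214% of all 18205 genes tested (edgeR quasi-likelihood test, Benjamini-Hochberg adjusted p under 0.05). CNGC3 (AT2G46430, chromosome 2, 19057999 to 19061492), a cyclic nucleotide-gated cation channel, had 12.9, 16.5 and 15.6 CPM in wt and 9.23, 6.55 and 6.28 in bzip68 mock libraries. The groups did not overlap, and all bzip68 libraries were lower. This was a log2 fold change of -1.02 ± 0.19 (SE, 3 libraries each; edgeR adjusted p = 0.0464). Under H2O2 the wt libraries had 11.8, 11.1 and 9.54 CPM and the bzip68 libraries 7.53, 8.59 and 11.1, which overlapped. Its peak, printed above, lay at -1358 bp with a score of 133.85 and its centre was in the coding sequence of AT2G46420.

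AT3G46700 (chromosome 3, 17200167 to 17202074), a UDP-glycosyltransferase, an enzyme class that adds sugars to small molecules, had 27.9, 35.6 and 34.5 CPM in wt and 47.2, 60.5 and 52.6 in bzip68 mock libraries. Every bzip68 library was higher, with a log2 fold change of 0.71 ± 0.13 (edgeR adjusted p = 0.0444). After H2O2 it had 13.9, 11.6 and 14.2 CPM in wt and 15.6, 15.7 and 15.3 in bzip68, lower than in any mock library. The response was -1.31 ± 0.14 in wt and -1.78 ± 0.14 in bzip68 (edgeR adjusted p = 1.92e-05 and 8.46e-07), and it shares the mock libraries with the genotype comparison. Its peak had a score of 84.09 and lay at -1974 bp, between genes.

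Both calls were close to the threshold. Without bzip68 mock replicate 2, which stood apart, the adjusted p was 0.0735 for both genes (edgeR), at log2 fold changes of -0.95 and 0.61. CNGC3 lost the call in 5 of 6 fits that left out 1 library and AT3G46700 in 4 of 6; over 13 alternatives each, the adjusted p ran from 0.00129 to 0.251 and from 0.000588 to 0.225. At an unadjusted p under 0.05, 26 genes with a distal peak differed, 9.85% beside 10.1% of all genes. DESeq2 called 3, beside 1.11% of all genes, adding Hsp70-2 (AT5G02490), a heat shock chaperone, at a log2 fold change of -0.85 (DESeq2 adjusted p = 0.0276); this gene was chosen after its values were seen.

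Under H2O2 none of the 264 genes passed in edgeR, beside 0.0714% of all genes, and 25 had an unadjusted p under 0.05 beside 9.23% of all. DESeq2 called 2, named here after their values were seen, beside 0.38% of all genes, and limma called 0, beside 0.143%. BGAL4 (AT5G56870), a beta-galactosidase of the cell wall, was lower in bzip68 at -0.81 ± 0.17 (edgeR adjusted p = 0.145, DESeq2 adjusted p = 0.00885). CIA2 (AT5G57180), a factor for chloroplast protein import genes, had 75.3, 69.4 and 70.5 CPM in wt and 108, 91.3 and 129 in bzip68 H2O2 libraries, at 0.61 ± 0.14 (edgeR adjusted p = 0.185, DESeq2 adjusted p = 0.0263). With the replicate number as a block, edgeR called BGAL4 (adjusted p = 0.0385).

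The response of each genotype to H2O2 was compared next, and more genes with a distal peak changed here. In wt 33 of 264 changed (12.5%), 11 higher and 22 lower, beside 9.74% of all genes, 5.02% higher and 4.72% lower. Genes with a peak 1 to 1000 bp upstream changed in 15.7% and those with a peak over the start in 13.8% of cases, and the other classes in 13.5% and 13.7%. The distal share was the lowest of these, but its interval of 9.04% to 17.0% included all of them, and the differences were not tested. In bzip68 24 changed (9.09%), 12 in each direction, beside 7.39% of all genes, 4.11% higher and 3.28% lower. The other peak classes had 10.3% to 14.4%. The distal share was again the lowest, and its Wilson interval ended below 14.4%. The 14.4% has a counting error of its own, and 58 of the 264 genes also had a promoter peak outside the distal class. The differences between classes were not tested in bzip68 either. The median log2 fold change over the 264 genes was -0.04 in wt and -0.02 in bzip68, beside -0.0037 and -0.00056 over all genes. The split by direction varied on leaving out 1 library, from 7 to 14 higher and 10 to 21 lower in wt, and from 4 to 13 higher and 7 to 18 lower in bzip68. It was 10 higher and 10 lower in wt without wt H2O2 replicate 3, and 4 higher and 10 lower in bzip68 without bzip68 mock replicate 3. Without both libraries that stood apart, 36 and 24 genes changed, beside 9.51% and 6.21% of all genes. Of these, 25 and 18 were the same genes as before. The 36 in wt were 17 higher and 19 lower. The responses share no libraries: 16 genes were called in both, 48.5% of the wt calls and 66.7% of the bzip68 calls, and all 16 moved in the same direction. Over all genes 863 were called in both, 48.7% of the wt calls and 64.1% of the bzip68 calls, and all 863 moved in the same direction.

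Among the genes that rose, CEJ1 (AT3G50260), an AP2-type factor of ethylene, jasmonate and cold signalling, changed most of those named. It had 2.88, 4.57 and 4.16 CPM in wt mock and 15.7, 9.87 and 8.93 in wt H2O2 libraries, with no overlap. Its log2 fold change was 1.57 ± 0.29 (edgeR adjusted p = 0.00247) in wt and 1.91 ± 0.30 (adjusted p = 0.001) in bzip68. CEJ1 also had a peak that covered its start. WNK1 (AT3G04910), a protein kinase with a clock protein among its substrates, rose from 74.1, 83.3 and 73.5 to 132, 133 and 124 CPM in wt, by 0.75 ± 0.12 (edgeR adjusted p = 0.000926). In bzip68 it rose by 0.54 ± 0.12 (adjusted p = 0.0135), a call lost without bzip68 mock replicate 3, without bzip68 H2O2 replicate 2 and when only the libraries compared were fitted, where the adjusted p over the alternatives reached 0.0788.

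BGAL4 rose in wt from 30.3, 39.7 and 24.7 to 68.0, 59.7 and 64.0 CPM, by 1.02 ± 0.17 (edgeR adjusted p = 0.00112). In bzip68 it had 43.8, 45.4 and 42.8 CPM in mock and 35.7, 45.3 and 28.4 in H2O2 libraries, a log2 fold change of -0.27 ± 0.17 (edgeR adjusted p = 0.449). The difference of the responses was -1.29 ± 0.24, with an edgeR adjusted p of 0.522 and a DESeq2 adjusted p of 0.00567. BGAL4 overlaps a gene on the other strand (AT5G56880), and reads of the pair cannot be told apart if the counting did not use strand.

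MUR4 (AT1G30620), the epimerase that makes the arabinose donor of cell wall polymers, rose by 0.62 ± 0.17 in wt and 0.70 ± 0.17 in bzip68. PCR2 (AT1G14870), a metal efflux protein, rose by 0.59 ± 0.16 in wt. CYP89A6 (AT1G64940), a cytochrome P450, PAT18 (AT4G01730), a protein acyltransferase, and LOH2 (AT3G19260), a ceramide synthase, rose in bzip68 by 1.24 ± 0.32, 1.05 ± 0.28 and 0.68 ± 0.19. Each of these 6 calls was lost in 3 to 5 of 6 fits that left out 1 library (edgeR), and the highest adjusted p over the alternatives ran from 0.0889 for MUR4 in bzip68 to 0.143 for PCR2.

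Among the genes that fell in wt, SULTR3;1 (AT3G51895), a sulfate transporter of the chloroplast, went from 11.2, 8.26 and 10.9 to 3.35, 3.95 and 4.36 CPM. Its log2 fold change was -1.38 ± 0.25 (edgeR adjusted p = 0.00164), and -1.17 ± 0.25 (adjusted p = 0.00818) in bzip68, where it was 0.0555 without bzip68 H2O2 replicate 3. All H2O2 libraries lay below all mock libraries of the same genotype.

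DMR6 went from 23.0, 24.1 and 20.8 to 10.1, 12.1 and 14.4 CPM in wt, by -0.89 ± 0.16 (edgeR adjusted p = 0.00184). CDF3 (AT3G47500), a Dof factor of flowering time and stress tolerance, went from 139, 119 and 148 to 85.6, 75.8 and 80.6 CPM, by -0.75 ± 0.12 (adjusted p = 0.000722). WRKY27 (AT5G52830), a factor of the immune response, fell by -1.25 ± 0.25 in wt (adjusted p = 0.00409). In bzip68 its value was -0.33 ± 0.26 (adjusted p = 0.555), and the difference of the responses, 0.92 ± 0.36, did not pass (edgeR adjusted p = 0.726). D27 (AT1G03055), an isomerase of strigolactone synthesis that overlaps another gene, fell by -0.88 ± 0.27 in wt at an adjusted p of 0.0495, which was lost in 5 of 6 fits that left out 1 library.

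Among the genes that fell in bzip68, CIPK7 (AT3G23000), a kinase regulated by calcium sensors, had 95.8, 92.8 and 98.2 CPM in mock and 61.8, 55.8 and 51.0 in H2O2 libraries, at -0.77 ± 0.13 (edgeR adjusted p = 0.00153). RHA2A (AT1G15100), a RING protein of abscisic acid signalling, fell by -0.76 ± 0.16 and AHL22 (AT2G45430), an AT-hook protein that restrains hypocotyl growth, by -0.80 ± 0.16. PAP10 (AT2G16430), an acid phosphatase secreted under phosphate starvation, fell by -0.80 ± 0.17 and CYP78A9 (AT3G61880), a cytochrome P450 of fruit and seed growth, by -0.94 ± 0.23. The PAP10 call was lost without bzip68 H2O2 replicate 3 (adjusted p = 0.0584), and PAP10 overlaps another gene. The CYP78A9 call was lost in 4 of 6 fits that left out 1 library, with adjusted p-values up to 0.0764.

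**Figure D4:**
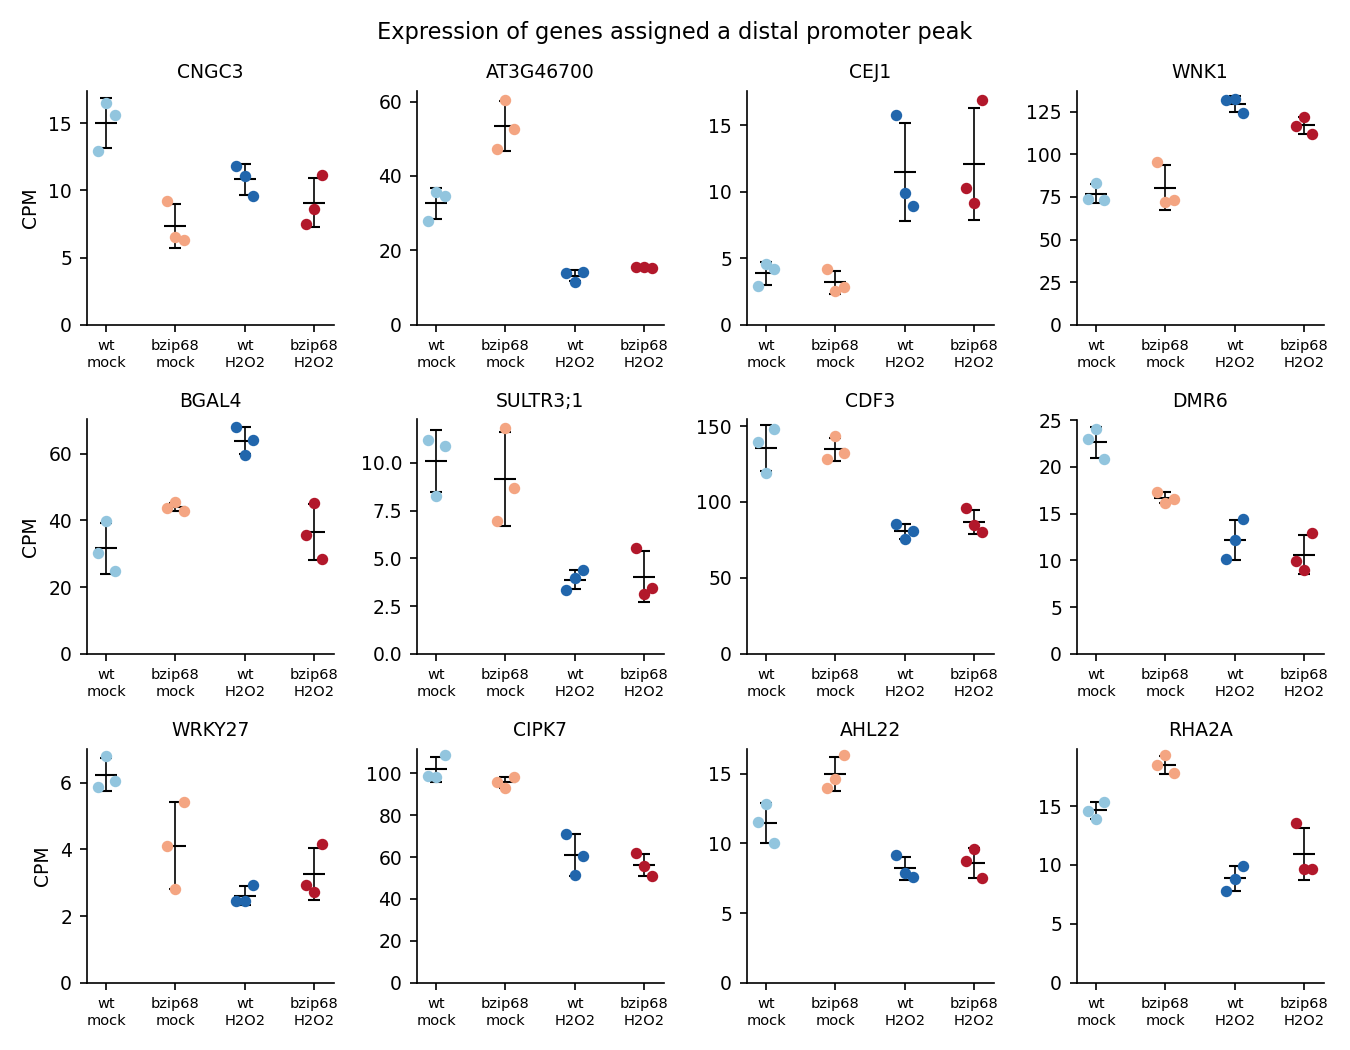
CPM (vertical axes, from 0) of 12 genes with a distal promoter peak in each library (points) of the 4 groups, with the mean and SD (bars, n = 3). CNGC3 and AT3G46700 separate wt from bzip68 in mock plants, CEJ1 and WNK1 are higher and SULTR3;1 and CDF3 lower in the H2O2 libraries of both genotypes.

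The difference of the H2O2 responses between genotypes was tested directly. In edgeR 0 of 264 genes passed, beside 0.0% of all genes, and 23 had an unadjusted p under 0.05 beside 6.47% of all. limma called 0, beside 0.0%, and DESeq2 2, beside 0.125%: BGAL4, and AGP12 (AT3G13520), a cell wall arabinogalactan protein, at 0.65 (DESeq2 adjusted p = 0.0488), both named after their values were seen.

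Calls were counted for genes with and without a G-box in the central window of their distal peak. In wt 11 of 97 such genes changed with H2O2 (11.3%) and 22 of 168 without (13.1%); in bzip68 they were 5 of 97 (5.15%) and 19 of 168 (11.3%). Over all genes 9.74% changed in wt and 7.39% in bzip68. BRI1 counts in both groups, having a peak of each kind. The shares overlapped in their intervals in both genotypes and were not tested.

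Of 14 lists of clock, light, hormone, stress, cell wall and metabolic genes, 471 genes in all, 203 had a nuclear peak of any kind and 16 a distal one. The 16 were 3.40% of the listed genes. In the reference 354 genes of any type had a distal peak, which is 1.29% of the number of its coding genes. A nuclear peak of any kind was assigned to 5343 genes of the reference. The lists held many genes with other peaks, so the 2 shares do not single out distal peaks. The difference was not tested, and the lists were chosen with earlier results known. The 16 genes were CDF3 among clock genes and HAI1 among abscisic acid genes. HB-7 and HB-12 were drought and cold genes, MDAR4 an enzyme of ascorbate recycling, HSFA6B a heat shock factor and ERF8 a repressor of the ethylene type. WRKY60 came from the immunity list, IAA3, IAA18 and ARF6 from auxin, and BRI1 and IBH1 from brassinosteroids. XTH15 and EXPA4 loosen the cell wall and PAL2 opens the phenylpropanoid pathway. The lists of light signalling, bZIP factors and photosynthesis had none. By score ERF8 (AT1G53170) led at 445.07, with 2 G-boxes in a peak at -2697 bp, followed by XTH15 (AT4G14130) at 436.05 and HB-12 at 364.38 with 1 each.

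HAI1 and HSFA6B were not tested. Of the other 14 genes, CDF3 was called in both responses and none of the 14 in a genotype comparison (edgeR). Of all 18205 genes tested, 863 were called in both responses. In the genotype comparison 0.214% of all genes were called under mock and 0.0714% under H2O2. BRI1 had 128 ± 6.79 CPM (SD, n = 3) in wt mock, 116 ± 10.2 in bzip68 mock, 113 ± 10.3 in wt H2O2 and 114 ± 11.04 in bzip68 H2O2 libraries. PAL2 (AT3G53260) came nearest to a call, with 351 ± 13.6 CPM in wt mock and 268 ± 11.9 in wt H2O2 libraries (-0.39 ± 0.12, edgeR adjusted p = 0.0597). HB-12 had 8.86, 6.92 and 11.3 CPM in wt mock and 6.0, 3.57 and 4.77 in wt H2O2 libraries (-0.92 ± 0.32, edgeR adjusted p = 0.0936), with no overlap. MDAR4 (AT3G27820) had 200 ± 5.61 and 168 ± 9.90 CPM in these groups (-0.26 ± 0.11, adjusted p = 0.159). ERF8 had 5.34 ± 0.83 CPM in wt and 3.39 ± 0.305 in bzip68 H2O2 libraries (-0.65 ± 0.21, adjusted p = 0.378).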

How the data were processed

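The peak lists and the RNA-seq table were used as the authors deposited them. The submitters' processing notes name MACS 1.4.3 and ChIPseeker, TopHat2 2.1.0 and RSEM 2.1.30, and TAIR10 as the genome, without saying which step each served. Per the file headers, the peaks passed a p-value of 1e-05 and GFP-FLAG served as input, and whether replicates were pooled is not given in the sources used here. Each peak carries a score, a width and a distance in bp as deposited by the authors. RNA-seq values were whole read counts per gene, as deposited. Whether counting used strand is not given in the sources used here. D27, PAP10, BGAL4, MUR4, TCX2, IAA3 and XTH15, which overlap a gene on the other strand, are thus uncertain.

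Counts of 12 libraries in 4 groups (18430 genes, 18205 after filterByExpr, 8 residual degrees of freedom) were scaled by TMM and tested with edgeR 4.0.16 (quasi-likelihood, Benjamini-Hochberg over all genes, threshold 0.05) in R 4.3.3, with DESeq2 1.42.0 and limma 3.58.1 as alternatives. The edgeR test was checked on simulated data, which were drawn without any library that stood apart. Another 6 columns, of low-light samples, were not analysed here. No pair of replicates agreed within sampling noise (chi-square of 6.06 to 28.3 for each degree of freedom). Same-numbered bzip68 libraries deviated together between mock and H2O2 (correlations of 0.37, 0.49 and 0.18). No other pair of groups deviated together in all 3 numbers. The numbers may pair the bzip68 libraries, from the data and not the labels. No correlation was computed between differently numbered libraries, so this was not tested. The main tests used no pairing, which entered only as a block in an alternative fit. All listed nuclear peaks ended within the chromosome lengths of the TAIR10.1 reference. Of 5412 genes assigned a nuclear peak, 5343 were in the reference, and all of these overlapped their listed position. Bases were read from the reference with Python 3.11.15, pandas 2.3.3, SciPy 1.17.1 and matplotlib 3.10.9.

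Peaks were named for the 10 highest scores and for the farthest and nearest distances. Genes were named where called between genotypes. For each response, up to 6 rising and 6 falling called genes were named, those with a symbol, at least 5 CPM in the higher group, no overlap between groups and the largest change. A gene that this rule selects is not reported here. From each gene list the highest-scoring members and those with the smallest adjusted p were eligible. The peaks and gene lists were chosen with earlier results of these data known.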

Additional observations from a re-analysis of the deposited data

How the results depend on the processing

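Of the genes with a distal peak, 2 were called between the genotypes under mock treatment. The count was 0 when only the libraries compared were fitted and 0 without both libraries that stood apart (chosen after seeing the data). It was 14 with limma, which was run as voom with library weights. Those were 3.54 for bzip68 mock replicate 3 against 0.558 and 0.354 for replicates 1 and 2, and 2.66 for wt mock replicate 1 against 0.758 and 0.782 for replicates 2 and 3. The shares of all genes called in these fits were 0.0946%, 0.4% and 4.63%. Leaving out 1 library gave 0 to 2, beside 0.0438% to 0.669% of all genes. Under H2O2 the count of 0 became 2 with DESeq2 (0.38% of all genes), and stayed 0 on leaving out any 1 library. The wt response went from 33 to 59 with limma (16.1% of all genes) and ranged from 17 to 35 on leaving out 1 library (6.17% to 8.46% of all genes), with 20 without wt mock replicate 1, 17 without wt mock replicate 3 and 20 without wt H2O2 replicate 3. The bzip68 response went from 24 to 42 with limma (13.0% of all genes) and ranged from 13 to 31 (3.94% to 9.61% of all genes), with 14 without bzip68 mock replicate 3, 15 without bzip68 H2O2 replicate 1 and 13 without bzip68 H2O2 replicate 3. The difference of responses went from 0 to 2 with DESeq2 (0.125% of all genes) and stayed 0 on leaving out 1 library (0.0% to 0.143% of all genes). Among genes whose peak scored above the median, 0.0%, 8.09% and 5.15% were called between genotypes in mock plants, in the wt response and in the bzip68 response. Of all genes 0.214%, 9.74% and 7.39% were called there. The G-box share of 35.1% was 13.8% in 100 bases, 47.2% in whole peaks and 28.0% at 36% to 40% G and C (added after seeing the data). Genome windows had 3.26% in 300 bases, 1.09% in 100 bases and 3.09% at that G and C content. No background was counted for whole peaks. Peaks with no gene were 67.4% by their centre, and below -1500 bp the shorter list held 0. Fewer bases searched, fewer samples or the list's own window are part of these changes by construction; otherwise the cause was not tested.

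With the replicate number as a block, the counts were 2, 1, 38, 27 and 0 in the order genotype in mock, genotype in H2O2, wt response, bzip68 response and their difference, beside 0.242%, 0.115%, 11%, 8.34% and 0.0% of all genes. No pairing is stated in the labels. No edgeR call for which a gene with a distal peak was named, between genotypes or in a response, reversed direction under the alternatives run. The split into higher and lower calls did vary, as given above. Peak positions have no replicate error here, and 94 genes without a row in the count table could not be tested.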

Other observations

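Distal peaks overlapped 90 coding genes other than the gene they were assigned to, and 77 of these were tested. None was called between the genotypes or in the difference of responses (edgeR). In the wt response 6 were called (7.79%, beside 9.74% of all genes), 4 higher and 2 lower, and in the bzip68 response 7 (9.09%, beside 7.39%), 4 higher and 3 lower. PME3 (AT3G14310), a pectin methylesterase of the cell wall, rose in wt from 188 ± 29.3 to 422 ± 82.4 CPM (SD, n = 3), by 1.16 ± 0.16 on the log2 scale (edgeR adjusted p = 0.000149). CYP707A2 (AT2G29090), an enzyme that breaks down abscisic acid, fell from 12.3 ± 1.35 to 5.42 ± 0.0599 CPM in wt, a log2 fold change of -1.19 ± 0.22. Both were also called in bzip68. There PME3 rose by 0.82 ± 0.16 (edgeR adjusted p = 0.00361) and CYP707A2 changed by -0.96 ± 0.22 (edgeR adjusted p = 0.0146). These genes were chosen after their values were seen.

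Genes that also had a promoter peak outside the distal class were called in 10 of 58 cases in the wt response (17.2%). The Wilson interval was 9.64% to 28.9%. In the bzip68 response 8 of 58 were called (13.8%). Of all genes 9.74% were called in the wt response and 7.39% in the bzip68 response. Genes with no promoter peak outside the distal class were called in 23 of 206 (11.2%, 7.56% to 16.2%) and 16 of 206 (7.77%). The intervals overlapped, and the difference was not tested.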
